A study of Mus musculus with 4 samples.

Results

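The genes that build and supply iron-sulfur clusters were followed in single-nucleus RNA-Seq of mouse lung. The set held 8 genes, listed by symbol with earlier results of these data known: Nfs1, Iscu, Isca1, Isca2, Lyrm4, Glrx5, Hspa9 and Tfrc. All 8 were found among the 32285 genes of the count tables. The lungs came from 2 WT mice (strain C57/BL6J) and 2 VEcad-TRF2DN-Tg mice, called Tg below, all labelled as 8 to 9 weeks old. The transgene is a dominant-negative TRF2, a protein that protects telomeres, and the VE-cadherin promoter drives it in endothelial cells (ECs), which makes the mice a model of EC senescence. By the study's text, all 4 mice had been kept in chronic hypoxia before the lungs were taken, a treatment that both genotypes share and that the sample labels do not list, and the labels do not say whether the age is that before or after it. The labels do not say whether the mice were littermates. The p-values between genotypes within a class or in droplets measure the spread between these 4 mice. The other comparisons were fitted with a term for each mouse. Their p-values measure the spread that remains within mice.

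Iron-sulfur clusters are small cofactors of the respiratory chain, of the citric acid cycle and of enzymes that copy and repair DNA. In mitochondria, the cysteine desulfurase Nfs1, held stable by its small partner Lyrm4, releases sulfur, and the cluster is built on the scaffold Iscu. The chaperone Hspa9 (mortalin) helps to move the finished cluster from the scaffold to the glutaredoxin Glrx5, and Isca1 and Isca2 assemble the larger clusters that some enzymes need. Tfrc, transferrin receptor 1, brings iron into the cell.

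Tfrc is the member whose transcript is tuned by iron itself, through hairpins called iron-responsive elements that iron regulatory proteins bind when iron is scarce. The elements are shown because they set Tfrc apart from the other members and also occur in the ferritin genes described below. Whether iron or these elements acted on any level given below was not tested. A search of the longest protein-coding transcript of each gene (GENCODE vM21, build GRCm38) for C, 5 bases, CAGTGN and 5 bases that pair with the first 5 found 4 elements in Tfrc, all in its 3′ untranslated region on chromosome 16, plus strand. The capitals mark the loop.
Tfrc, chr16:32631220-32631246: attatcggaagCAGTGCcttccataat
Tfrc, chr16:32631599-32631625: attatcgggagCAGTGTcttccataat
Tfrc, chr16:32631664-32631690: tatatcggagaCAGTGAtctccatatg
Tfrc, chr16:32631711-32631737: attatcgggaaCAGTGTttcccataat
The ferritin heavy chain Fth1 and light chain Ftl1, which store iron, each held 1 element, in the 5′ untranslated region.
Fth1, chr19:9982733-9982759, plus strand: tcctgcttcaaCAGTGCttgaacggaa
Ftl1, chr7:45459780-45459806, minus strand: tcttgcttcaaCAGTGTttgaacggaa
Of 21901 genes searched, 1.24% held such a sequence, and Tfrc was the 1 gene with 4 or more. The other 7 members held none of these letters, which says nothing of other forms of the element.

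The members lie on several chromosomes of GRCm38. Nfs1 spans chr2:156123639-156144186 on the minus strand and overlaps Romo1 on the opposite strand. Iscu spans chr5:113772748-113778288, Isca2 chr12:84773251-84775088 and Glrx5 chr12:105032688-105042906, all on the plus strand. Isca1 (chr13:59755409-59769810) and Lyrm4 (chr13:35978395-36117526) lie on the minus strand, and Tfrc (chr16:32608920-32632794) on the plus strand. Lyrm4 spans 139132 bases and overlaps Fars2 on the opposite strand. It also overlaps a transcript on its own strand, Gm48765, and reads in the stretch shared with Gm48765 may be split or lost. Isca1 is overlapped by the antisense gene Etohd2. Because reads on introns were counted and gene lengths differ, levels are compared below between classes and mice and never between genes.

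Each library held between 125261739 and 182014706 unique molecular identifiers (UMIs, each standing for 1 captured transcript). Between 25269 and 44000 barcodes per mouse had 1500 or more UMIs, and 12.3% to 25.5% of these were assigned to 1 of 18 cell classes from marker genes. Most of the others had no class. In 14 classes every mouse had at least 27 barcodes, and marker genes kept for checking were 2.13 to 51.2 times higher in each of these classes than in the other assigned nuclei. The endothelial-like class had 526 and 351 nuclei in WT and 605 and 697 in Tg lungs. Barcodes with 300 to 800 UMIs, called empty droplets below, gave the profile of the free RNA. From secretory transcripts that each class should lack, free RNA was estimated to make up 26.0% to 51.9% of a class on average over the mice, and 39.8% to 52.2% of the endothelial-like UMIs. Of these transcripts, Sftpc, Scgb1a1 and Scgb3a2 were also marker genes of the assignment. Barcodes rich in them could be given another class or left out as doublets, which may lower the estimates. More barcodes were left out as doublets in Tg than in WT, and the size of this effect was not tested. Pairs of libraries shared between 176 and 475 of the barcodes with 1500 or more UMIs.

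The first question was whether the members differed between WT and Tg mice in endothelial-like nuclei, where the promoter drives the transgene. The scaffold Iscu and the glutaredoxin Glrx5 were higher in the Tg mice, and none of the 8 was called lower. Iscu was measured at 12.7 and 23.7 CPM (UMIs scaled to a common total per class) in WT and 57.6 and 46.4 in Tg. Both Tg mice lay above both WT mice, with means of 52.0 ± 7.94 and 18.2 ± 7.80 CPM (SD, n = 2 each). The fitted difference was a log2 fold change of 1.58 ± 0.34 (SE), or 2.99-fold, with an adjusted p of 0.0189. Glrx5 was measured at 13.98 and 18.004 CPM in WT and 49.3 and 38.1 in Tg. The genotypes did not overlap, and the log2 difference was 1.496 ± 0.32, with an adjusted p of 0.0175. These 2 called members of 8 stood beside 13.3% of all 11596 genes called in the same comparison (9.62% higher and 3.71% lower). Counted by overlap alone, 30.4% of all genes had both Tg mice above both WT mice there, and 32.6% had them below.

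The other 6 members were not called in endothelial-like nuclei. Hspa9 was at 45.1 and 50.7 CPM in WT against 63.7 and 80.1 in Tg, with no overlap and an adjusted p of 0.0933. Isca2 was at 3.81 and 11.5 CPM against 19.7 and 12.2, with an adjusted p of 0.192, and was called without WT replicate 2 (0.0220). The desulfurase Nfs1 was at 31.8 and 30.3 CPM in WT against 37.2 and 38.7 in Tg. This small difference, again without overlap, had an adjusted p of 0.436. Its partner Lyrm4 was at 8.90 and 10.6 CPM against 15.9 and 10.5, and Isca1 was at 8.26 and 13.9 against 12.9 and 7.73, so that both overlapped. Tfrc was at 23.5 and 28.6 CPM in WT against 19.7 and 33.1 in Tg, and the Tg mice enclosed the WT mice. The median log2 difference over the 8 members was 0.55, beside 0.02 over all genes tested. With 2 mice against 2, an exact permutation test of a single gene cannot give a two-sided p under 0.33, so that these calls rest on the spread shared across genes.

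**Figure D1:**
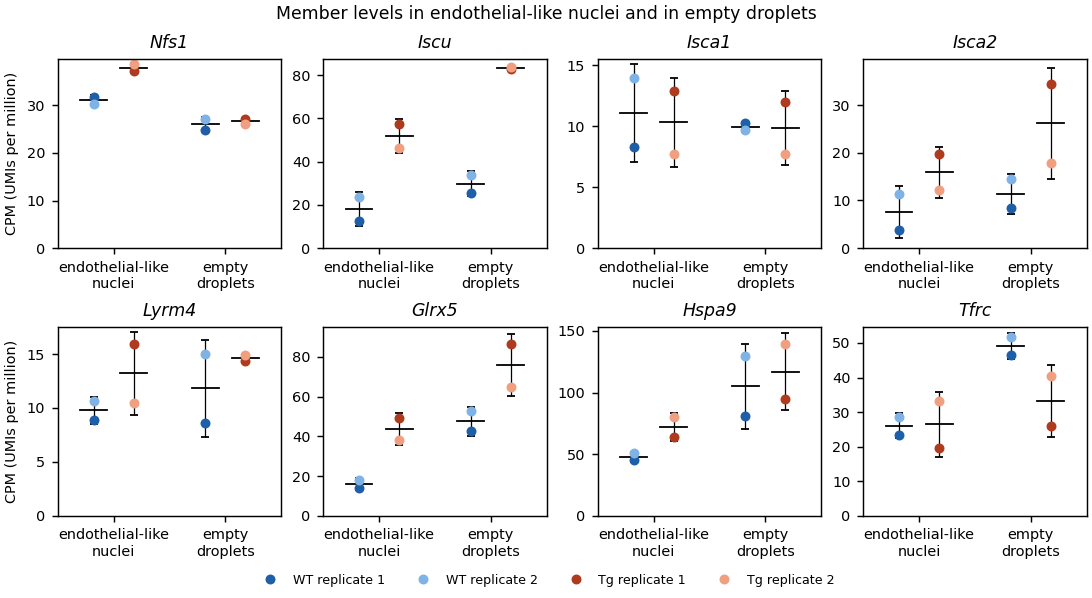
CPM (scaled UMIs, vertical axis) of the 8 members in endothelial-like nuclei and in empty droplets. Points are mice, lines are means and bars are the SD (n = 2 per genotype). For Iscu and Glrx5 the Tg points lie above the WT points in the nuclei and in the droplets, and Tfrc is lower in both Tg mice in the droplets.

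The same comparison was made in the empty droplets, because free RNA can enter droplets that hold a nucleus. Iscu was at 25.7 and 34.0 CPM in the WT droplets and 83.0 and 83.6 in the Tg droplets, a log2 difference of 1.73 ± 0.25 with an adjusted p of 0.0178. Glrx5 was at 42.5 and 52.8 CPM against 86.7 and 64.6, and its adjusted p was 0.0580. Isca2 was at 8.46 and 14.4 CPM against 34.4 and 17.96, with an adjusted p of 0.0527. Iscu was thus the 1 called member of 8, beside 25.6% of all genes called in the droplets (14.5% higher and 11% lower). Over all genes, 27.4% had both Tg mice above both WT mice in the droplets and 41.6% had them below. Without Tg replicate 1 the Iscu call was lost (adjusted p = 0.202), while Isca2 and Glrx5 were called too in several alternatives. Both were called without WT replicate 2 (0.00389 and 0.0363), with no filter on low counts (0.000121 and 0.00860), with a replicate block (0.0228 and 0.0447) and in droplets with more UMIs (0.0275 and 0.0443), and DESeq2 called Isca2 (0.0173). Hspa9 was at 80.8 and 129 CPM against 94.8 and 139, and Lyrm4 at 8.64 and 14.98 against 14.4 and 14.9, so that both overlapped. Isca1 overlapped as well, at 10.3 and 9.66 CPM against 11.98 and 7.70 (adjusted p = 0.523). Nfs1 was close to level, between 24.8 and 27.2 CPM in the 4 mice. Tfrc was at 46.4 and 51.8 CPM in the WT droplets and 26.0 and 40.5 in the Tg droplets, with no overlap and an adjusted p of 0.282.

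The droplets and the nuclei of the Tg mice also held more ribosomal protein and mitochondrial transcripts. Transcripts of 92 ribosomal protein genes made up 0.866% and 1.87% of the UMIs in the WT droplets and 7.35% and 6.28% in the Tg droplets, and in endothelial-like nuclei 0.466% and 0.993% against 3.53% and 3.29%. Transcripts of the mitochondrial genome made up 0.126% and 0.151% in the WT droplets and 0.785% and 0.685% in the Tg droplets. Free RNA at the estimated share would by itself give 12.6 and 17.8 CPM of Iscu in WT and 33.0 and 36.6 in Tg endothelial-like nuclei. All 4 measured values were at or above these. For Glrx5 the free RNA would give 20.7 and 27.6 CPM in WT, above the measured values, and 34.5 and 28.3 in Tg, below them. With the profile of the droplets subtracted, neither Iscu (adjusted p = 0.404) nor Glrx5 (adjusted p = 0.134) was called, and 85 of all genes were called in place of 1546. The fitted log2 differences were then 2.36 for Iscu and 7.10 for Glrx5. For both genes the subtraction took more CPM from the Tg than from the WT mice, so that the difference in CPM was smaller. A sum below its free RNA was left with no UMIs. This was so for Glrx5 in both WT mice, and its fitted fold depends on the prior count. For Tfrc the free RNA would give 22.7 and 27.1 CPM in WT, nearly all that was measured, and 10.3 and 17.7 in Tg, and for Hspa9 39.5 and 67.6 in WT and 37.7 and 60.8 in Tg. With the subtraction their log2 differences went from 0.08 to 3.15 for Tfrc and from 0.63 to 2.58 for Hspa9, and neither was called (adjusted p = 0.202 and 0.280). In WT replicate 2, free RNA would give more Hspa9 than the 50.7 CPM measured, and in WT replicate 1 nearly all of the 12.7 CPM of Iscu. The folds of Iscu, Tfrc and Hspa9 after subtraction thus also rest on little that remained in WT. Without Tg replicate 1, no gene was called in endothelial-like nuclei, and Iscu (log2 difference 1.37) and Glrx5 (1.26) had adjusted p of 0.277 and 0.254. With at least 2500 UMIs per barcode Glrx5 was not called either (log2 difference 1.23, adjusted p = 0.117).

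Outside the endothelial-like class, Iscu was again the member that differed most often. It passed the filter on low counts in 9 of the 13 other classes, in some of them only through the Tg mice. Fibroblast-like nuclei were such a class, with 9 and 9 UMIs in WT and 25 and 24 in Tg. There the filter leaned the fit toward higher. Iscu was fitted higher in the Tg mice in all 9 (log2 differences of 1.10 to 1.82). It was called in 5: alveolar type 1-like, alveolar type 2-like, club-like, fibroblast-like and alveolar macrophage-like nuclei. In club-like nuclei, the secretory cells of the airways, it was at 7.204 and 10.98 CPM in WT and 29.4 and 27.7 in Tg, with an adjusted p of 0.0165. This call was kept under the 10 alternatives that gave a value there, and the subtraction of free RNA gave none. Free RNA at the estimated share would by itself give 9.25 and 11.9 CPM of Iscu in WT and 25.8 and 25.9 in Tg club-like nuclei, so that 2 of the 4 measured values, both Tg, were above it. In alveolar type 1-like nuclei, the thin cells of gas exchange, it was at 9.86 and 10.7 CPM against 33.5 and 32.9, with an adjusted p of 0.00655. There free RNA would give 8.08 and 11.01 CPM in WT, about the measured level, and 22.1 and 24.6 in Tg, below it. Glrx5 was called in alveolar type 1-like nuclei only, at 11.1 and 11.9 CPM against 27.6 and 30.0 (adjusted p = 0.0149), and was fitted higher in all 9 classes tested. Isca2 was fitted higher in all 7 classes tested. Glrx5 and Isca2 too passed the filter in some classes only through the Tg mice, which leans these counts toward higher. Examples are Isca2 in ciliated-like nuclei (7 and 3 UMIs in WT, 26 and 14 in Tg) and Glrx5 in B-like nuclei (30.9 and 27.1 CPM in WT, 41.4 and 39.1 in Tg). Isca2 was called in none of its classes. Nfs1 (9 classes), Isca1 (6), Lyrm4 (6) and Hspa9 (11) were called in none either, with log2 differences of -0.37 to 0.33, -0.90 to 0.22, -0.20 to 0.60 and -0.21 to 0.69. In all, 6 of the 67 pairs of member and class were called, each of them higher in the Tg mice, beside 9.32% of all gene and class pairs called (7.49% higher and 1.83% lower). Apart from Iscu in club-like nuclei, these calls were lost without Tg replicate 1 (adjusted p of 0.0981 to 0.267), and those of Iscu in fibroblast-like and alveolar macrophage-like nuclei (0.0582 and 0.0927) and of Glrx5 (0.0571) also without Tg replicate 2. The fibroblast-like call was lost by DESeq2 (0.144) and that of Glrx5 with barcodes of 2 classes kept (0.0621). With free RNA subtracted, Iscu was called in none of the alveolar type 1-like, alveolar type 2-like and alveolar macrophage-like classes (adjusted p = 0.140, 0.183 and 0.232, at log2 differences of 3.34 to 3.66), and Glrx5 in alveolar type 1-like nuclei was the 1 call kept (0.0450), while the fibroblast-like and club-like classes gave no value. In each of these classes with a value, free RNA would give all of the Iscu measured in a WT mouse. In alveolar type 1-like nuclei it would give 13.3 and 17.1 CPM of Glrx5 in WT, above both measured values. The subtraction thus left no Glrx5 UMIs in WT there, and the kept call sets the Tg mice against nothing measured. The folds of Iscu rest on little that remained in WT. Without Tg replicate 1 there were 2 called pairs, and without WT replicate 2 there were 10.

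**Figure D2:**
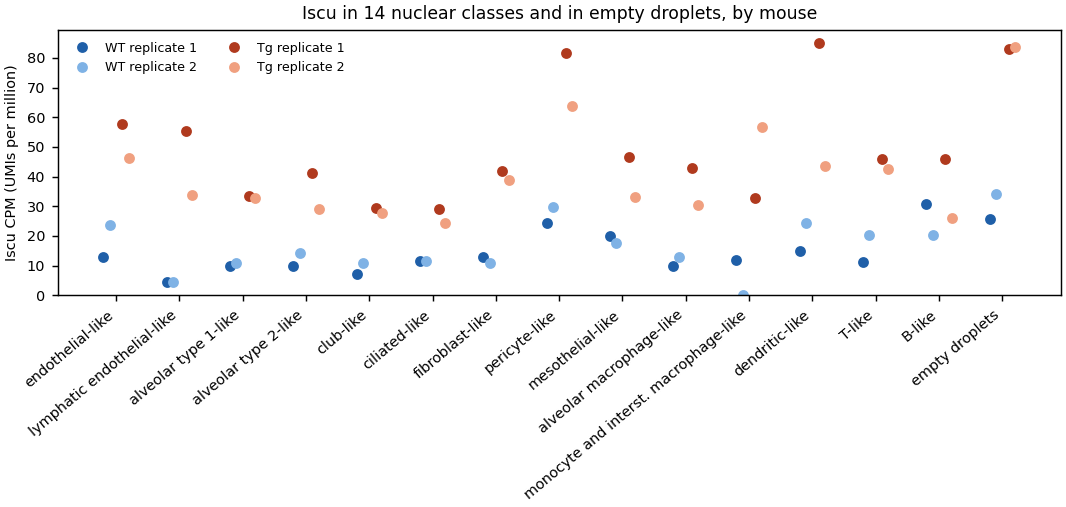
CPM of Iscu (vertical axis) in each of 14 nuclear classes and in empty droplets, with 1 point per mouse. Both Tg mice lie above both WT mice in 13 of the 14 classes, the B-like class being the exception, and the empty droplets show the same order. In each genotype the mean of the droplets is above the mean of every class, though single mice of a class exceed their own droplets (Tg replicate 1 in the dendritic-like and WT replicate 1 in the B-like class).

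Counted by overlap alone in all 14 classes, with no filter on low counts, both Tg mice were above both WT mice for Iscu in 13 of 14, for Glrx5 in 12 and for Isca2 in 11. The classes come from the same 4 mice and share their free RNA, where each of these genes had the same order. The counts of classes, here and for the fitted differences above, are thus not separate results. Over the 8 members, 49 of 112 pairs of member and class had Tg above WT with no overlap and 12 had Tg below. Of all gene and class pairs that passed the filter, which a gene can pass through the higher genotype alone, 29.1% and 30.9% did so, and 36 and 8 of the 75 pairs of a member that passed. For the receptor Tfrc, both Tg mice were below both WT mice in 5 of 14 classes and above them in none. Its fitted difference was positive in 3 of the 10 classes besides the endothelial-like (alveolar type 1-like, fibroblast-like and B-like), with a range of -1.02 to 0.19. In alveolar type 2-like nuclei, which make surfactant, Tfrc was at 63.6 and 56.8 CPM in WT against 31.3 and 47.9 in Tg, with a log2 difference of -0.59 ± 0.21 and an adjusted p of 0.105. In the monocyte and interstitial macrophage-like class it was at 201 and 109.7 CPM against 65.2 and 56.8, from 17, 31, 6 and 7 UMIs, with an adjusted p of 0.321. Tfrc was called between genotypes in none of the classes by edgeR, and its unadjusted p was under 0.05 in the alveolar type 2-like class alone.

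An interaction term, fitted with a term for each mouse, set the genotype difference of endothelial-like nuclei against that of the other classes. None of the 8 members was called, beside 0.0214% of all genes (3 of 14025, all higher, and 0% lower), and none had an unadjusted p under 0.05. DESeq2 called none either. For Iscu the difference of differences was -0.03 ± 0.27, with a 95% interval from -0.56 to 0.51 on the log2 scale. For Glrx5 it was 0.52 ± 0.28, from -0.03 to 1.08, and for Hspa9 0.32 ± 0.21, from -0.10 to 0.74. The intervals of Isca1, Isca2 and Lyrm4 each reached over 0.70 in both directions. Nfs1 (0.06 ± 0.27) and Tfrc (0.37 ± 0.30) also included 0.

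**Figure D3:**
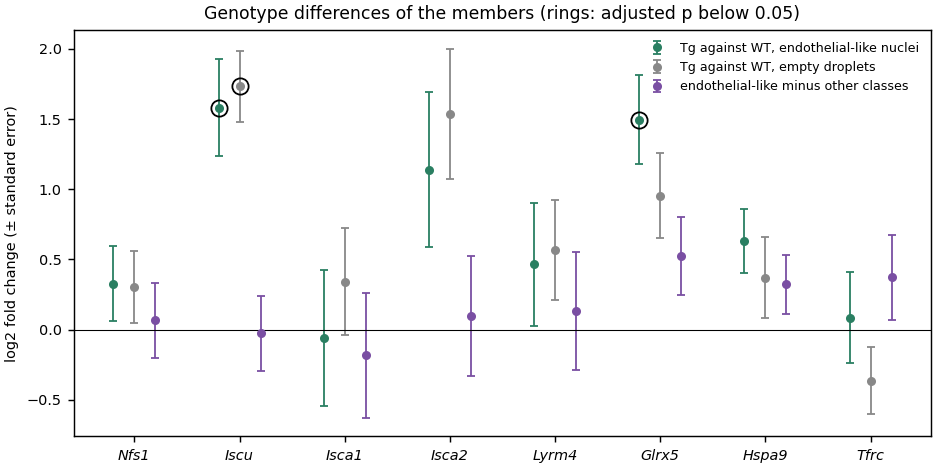
Log2 fold changes with standard errors (vertical axis) for the 8 members between Tg and WT mice in endothelial-like nuclei and in empty droplets, and for the endothelial-like difference minus that of the other classes. Rings mark adjusted p below 0.05: Iscu in both, Glrx5 in the nuclei, and no member for the difference between classes.

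The next question was where in the lung each member was high. Each of 14 classes was set against the mean of the other 13, within mice. Of 112 pairs of member and class, 13 were called higher and 8 lower, beside 29% of all gene and class pairs (16.3% higher and 12.7% lower). The called pairs fell mainly on Isca1, Lyrm4 and Tfrc, each with a class of its own at the top.

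Isca1, which assembles larger clusters, was highest in ciliated-like nuclei, the cells with motile cilia that sweep the airways. It was at 32.9 and 31.4 CPM in WT against 29.8 and 27.5 in Tg, from 49, 19, 36 and 27 UMIs. As fitted this was 2.98-fold above the other classes, with a log2 difference of 1.58 ± 0.20 and an adjusted p of 3.23e-10. Relative to the mean of the classes in the same mouse, the ciliated-like level was 2.16 ± 0.10 (SD, n = 4), and the 4 mice did not overlap the next class in the order, club-like, at 1.32 ± 0.35. Single mice of 3 small classes reached the ciliated-like range from 3 or 4 UMIs each: WT replicate 2 in the pericyte-like, Tg replicate 2 in the lymphatic endothelial-like and WT replicate 1 in the monocyte and interstitial macrophage-like class. The empty droplets held 10.3, 9.66, 11.98 and 7.70 CPM, so that the ciliated-like level was above the free RNA too (log2 difference 1.74 ± 0.23). Isca1 was also called higher in club-like and mesothelial-like nuclei and lower in alveolar type 1-like nuclei, at 7.72, 9.19, 5.32 and 3.39 CPM. The club-like call was lost without Tg replicate 2 (adjusted p = 0.0710) and with free RNA subtracted (0.0531). The alveolar type 1-like call was lost in 6 of 10 alternatives: without WT replicate 1 or either Tg mouse (0.122 to 0.146), with at least 1000 UMIs (0.0843), with barcodes of 2 classes kept (0.0708) and with free RNA subtracted (0.0808). All other neighbours in the order overlapped. Its relative Isca2 had no such peak: it was called in mesothelial-like nuclei, the lining of the pleura, with a log2 difference of 0.70 ± 0.18, and its ciliated-like level relative to the mean of the classes was 0.81 ± 0.34. Without Tg replicate 1 the mesothelial-like calls of Isca1 (adjusted p = 0.241) and Isca2 (0.126) were lost, and that of Isca1 also with at least 2500 UMIs (0.0599), with barcodes of 2 classes kept (0.155) and with free RNA subtracted (0.171).

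Lyrm4, the partner of the desulfurase, was highest in alveolar macrophage-like nuclei, the phagocytes of the air spaces. It was at 15.6 and 32.3 CPM in WT against 44.6 and 30.5 in Tg, from 32, 125, 96 and 137 UMIs. The lowest of these, WT replicate 1, was within the range of other classes. The log2 difference from the other classes was 1.37 ± 0.16, with an adjusted p of 2.34e-11. Lyrm4 was called higher in ciliated-like nuclei as well, at 21.5, 24.8, 19.0 and 23.4 CPM (log2 difference 1.10 ± 0.22), and in alveolar type 1-like nuclei, at 13.3, 24.8, 15.9 and 22.3 CPM (1.07 ± 0.18). Relative to the mean of the classes, the alveolar type 1-like level of Lyrm4 was 1.34 ± 0.45, with Tg replicate 1 below the mean at 0.91. The B-like level was higher, at 1.88 ± 0.91, and was not called (adjusted p = 0.109). All neighbours in the order of Lyrm4 over 14 classes overlapped. In dendritic-like nuclei it was called lower, but from 1, 0, 2 and 2 UMIs, and the call was lost when any 1 of the mice was left out (adjusted p of 0.0665 to 1), by DESeq2 (0.0799), with at least 2500 UMIs (1) and with barcodes of 2 classes kept (0.0605). Nfs1, the enzyme that Lyrm4 holds, followed another order, in which all neighbours overlapped. Its mean over the mice was highest in club-like nuclei, at 35.1 and 49.0 CPM in WT against 54.9 and 53.7 in Tg. Each of the 4 mice was above the mean of its classes there, although other classes were higher in both WT mice, with a log2 difference of 0.62 ± 0.12 and an adjusted p of 8.26e-06. It was also called higher in alveolar type 1-like nuclei (0.39 ± 0.12, adjusted p = 0.00741, and 0.0776 without Tg replicate 2 and 0.0750 with free RNA subtracted) and lower in dendritic-like nuclei (adjusted p = 0.0411, and 0.0636 to 0.382 in the 8 alternatives that lost the call, each left-out mouse and DESeq2 among them). Relative to the mean of the classes, the alveolar type 1-like level of Nfs1 was only 1.04 ± 0.10, with WT replicate 1 at 0.89.

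The iron receptor Tfrc was highest in the monocyte and interstitial macrophage-like class, at 2.82 ± 1.09 times the mean of the classes. The log2 difference was 1.61 ± 0.24, with an adjusted p of 2.74e-07, and relative to the mean of the classes every mouse was above every mouse of the other 13 classes. This class was small, with 27 to 56 nuclei per mouse. Alveolar type 2-like nuclei came next, at 1.37 ± 0.14 times the mean of the classes, with a log2 difference of 0.82 ± 0.11 and an adjusted p of 3.50e-09. At the other end, Tfrc was lowest in alveolar type 1-like nuclei, at 12.4, 18.1, 9.57 and 20.3 CPM (log2 difference -0.79 ± 0.16, adjusted p = 2.24e-05). It was also called lower in mesothelial-like, fibroblast-like and ciliated-like nuclei, the last 2 of which depended on single mice: without WT replicate 2 the adjusted p was 0.215 and 0.0577, and without WT replicate 1 it was 0.0527 for the fibroblast-like class. The ciliated-like call was also lost with at least 2500 UMIs (adjusted p = 0.117) and with barcodes of 2 classes kept (0.104), and with free RNA subtracted the mesothelial-like (0.159), fibroblast-like (0.150) and ciliated-like (0.322) calls were all lost. The endothelial-like level was 0.75 ± 0.23 of the mean of the classes and was not called.

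**Figure D4:**
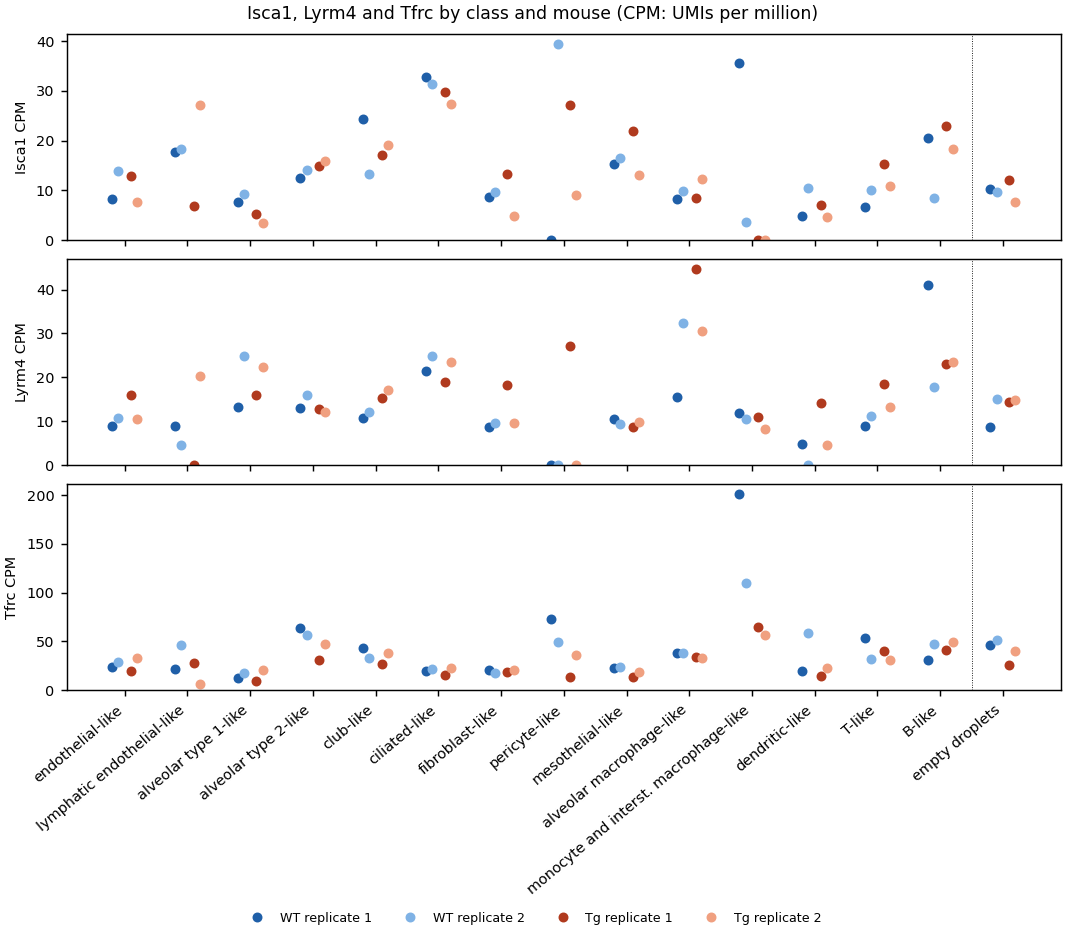
CPM of Isca1, Lyrm4 and Tfrc (vertical axes) in 14 classes and, right of the dotted line, in empty droplets, with 1 point per mouse. Isca1 is high in all 4 mice in the ciliated-like class, Lyrm4 is high in the alveolar macrophage-like class in 3 of 4 mice, and Tfrc is high in the monocyte and interstitial macrophage-like class and, less so, in the alveolar type 2-like class.

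Iscu, Glrx5 and Hspa9 were called in few classes. Iscu was called higher in endothelial-like nuclei (log2 difference 0.40 ± 0.14, adjusted p = 0.0245) and lower in club-like nuclei (-0.42 ± 0.14, adjusted p = 0.0107). Relative to the mean of the classes it was highest in pericyte-like nuclei, at 1.79 ± 0.12 from 2, 3, 6 and 7 UMIs, and was not called there (adjusted p = 0.187). The endothelial-like level was 1.23 ± 0.26, with WT replicate 1 below the mean at 0.93. The endothelial-like call was lost without WT replicate 2 (adjusted p = 0.0879), without Tg replicate 1 (0.0991), with no filter on low counts (0.0676), with barcodes of 2 classes kept (0.245) and with free RNA subtracted (0.335). The club-like call was lost without Tg replicate 1 (0.0880) and with at least 2500 UMIs (0.192). Glrx5 was called in none of the 14 classes and Hspa9 in B-like nuclei (0.43 ± 0.14, adjusted p = 0.0174), at 72.0, 78.3, 115 and 112 CPM. That call was lost in 5 of 10 alternatives: without either Tg mouse (adjusted p = 0.137 and 0.120), with at least 2500 UMIs (0.464), with barcodes of 2 classes kept (0.336) and with free RNA subtracted (0.203). Across the 14 classes, the mean level of a member and the estimated share of free RNA had Pearson's r of 0.71 for Glrx5, 0.52 for Iscu and 0.48 for Hspa9, 0.39 for Isca2 and 0.34 for Tfrc, against -0.16 for Lyrm4, -0.20 for Isca1 and -0.10 for Nfs1. The points share libraries and the r values are a description. The B-like class had a share of free RNA of 41.8% to 70.2% over the mice.

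Set against the empty droplets of the same mice, the members differed in direction. Iscu was called lower than in the droplets in 13 of 14 classes, and Glrx5 and Hspa9 in 14 of 14. Isca2 was called lower in 6 and higher in none. Nfs1 was fitted above the droplets in 13 of 14 classes and called higher in 5, among them club-like (log2 difference 0.91 ± 0.15) and alveolar type 1-like nuclei (0.71 ± 0.15). Isca1 was called higher in 4 classes, Lyrm4 in 3 and Tfrc in 2, the monocyte and interstitial macrophage-like (1.13 ± 0.24) and alveolar type 2-like classes (0.35 ± 0.14). Together 67 of 112 pairs were called, 14 higher and 53 lower, beside 49.8% of all gene and class pairs (20% higher and 29.8% lower). Against droplets with fewer UMIs, of which each mouse had 95 to 113 with 18999 to 20456 UMIs in all, 3 of the pairs were called, and against droplets with more UMIs 66. Lyrm4 was called lower in dendritic-like nuclei, and Tfrc in 5 classes. In endothelial-like nuclei, the 5 members called lower than the droplets were Iscu, Isca2, Glrx5, Hspa9 and Tfrc, by log2 differences of -0.61 to -1.12, and Nfs1 was at 0.37 ± 0.17 with an adjusted p of 0.0551.

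**Figure D5:**
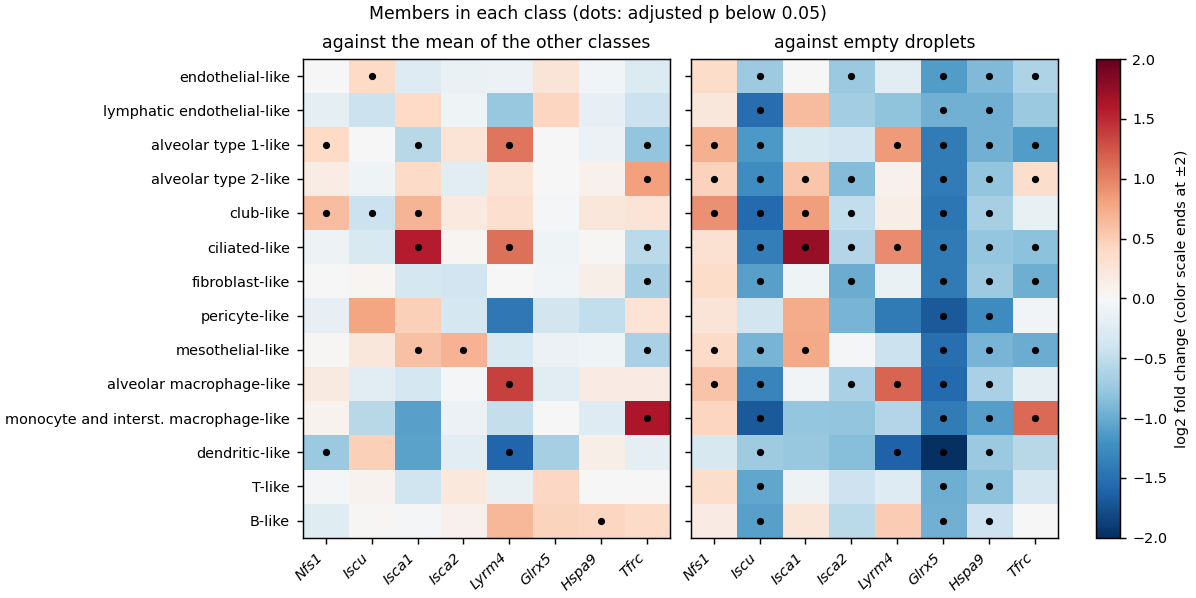
Log2 fold changes (color) of the 8 members (columns) in 14 classes (rows) against the mean of the other classes, left, and against empty droplets, right, with dots where the adjusted p is below 0.05. Isca1 in the ciliated-like class and Tfrc in the monocyte and interstitial macrophage-like class stand out on the left, and Iscu, Glrx5 and Hspa9 are low in nearly every class on the right.

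Dividing cells take up iron through Tfrc, so barcodes with 3 or more UMIs of mitotic genes were compared with the others. In WT lungs, Tfrc was at 41.4 and 42.0 CPM in mitotic barcodes against 41.0 and 42.9 in the others, and in Tg lungs at 24.4 and 32.2 against 25.2 and 35.0. The log2 difference was -0.09 ± 0.07, with an adjusted p of 0.408. Iscu (-0.39 ± 0.08, adjusted p = 0.00313) and Glrx5 (-0.42 ± 0.10, adjusted p = 0.00530) were called lower in the mitotic barcodes, 2 of 8 beside 28.4% of all genes (12.4% higher and 16% lower). Lyrm4 (0.30 ± 0.11, adjusted p = 0.0517) and Hspa9 (-0.20 ± 0.07, adjusted p = 0.0534) were not called. Each was called in 3 of 9 alternatives, with adjusted p down to 0.0279 for Lyrm4 and 0.00169 for Hspa9. Among these were Lyrm4 without WT replicate 1 (0.0332) or WT replicate 2 (0.0367), and Hspa9 without Tg replicate 1 (0.00872). Isca2 (-0.17 ± 0.12), Nfs1 (-0.02 ± 0.08) and Isca1 (0.0023 ± 0.11) were not called. The mitotic barcodes were deeper, with median UMIs of 3127 and 2727 in WT and 3313 and 4216 in Tg, against 1854, 1949, 2497 and 2496 in the others, and with at least 2500 UMIs per barcode neither Iscu (log2 difference -0.0665, adjusted p = 0.657) nor Glrx5 (-0.16, adjusted p = 0.359) was called. Between 58.6% and 73.4% of the mitotic barcodes had no class. The same held for most of all barcodes, mitotic ones included. Those with no class were 21914 of 26933 and 32173 of 38543 in WT, and 13309 of 25269 and 29323 of 44000 in Tg. How much of their UMIs was free RNA was not tested, so the Tfrc comparison cannot set dividing cells against resting ones. With only barcodes of 1 class compared, neither Iscu nor Glrx5 was called (adjusted p = 0.739 and 0.928), and Glrx5 was not called without Tg replicate 2 (0.0932).

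Around the members, 76 other genes of the pathway were measured in 5 lists drawn up by role. In endothelial-like nuclei, 12 of the 65 that passed the filter were called higher in the Tg mice and 1 lower, beside 9.62% and 3.71% of all genes. Among the 12 assembly partners in mitochondria, 3 were called higher and none lower: Bola1, Bola3 and the ferredoxin Fdx2. Bola3, which helps to hand clusters to their targets, was at 5.08 and 4.91 CPM in WT against 31.1 and 16.6 in Tg. Of the cytosolic assembly genes, Bola2 was called higher, 1 of 10. Of the 15 genes of iron uptake, storage and sensing, 4 were called higher and none lower. Ftl1 was at 43.2 and 115 CPM in WT against 797 and 689 in Tg, and Fth1 at 73.1 and 203.8 against 1422 and 1087. The log2 differences were 3.30 ± 0.38 and 3.25 ± 0.41. Ferritin genes have processed pseudogenes, so that some of their reads may have been split or lost. They were higher in the Tg droplets as well, Ftl1 at 101 and 198 CPM against 1880 and 1420.1. In each mouse the Ftl1 level of the droplets was above that of the endothelial-like nuclei. Free RNA was estimated at 39.8% to 52.2% of the endothelial-like UMIs, and how much of the ferritin difference in the nuclei it would give was not tested. Of 19 iron-sulfur proteins, 2 were called higher, the complex I subunits Ndufs7 and Ndufs8, and Dpyd lower, and of 9 mitochondrial chaperones and proteases Hspe1 and Hspd1 were called higher. In the droplets, 23 of 75 of these genes were called higher in the Tg mice and 4 lower, beside 14.5% and 11% of all genes. The interaction term called none of 73. Without Tg replicate 1, none of these calls in endothelial-like nuclei was left.

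Between classes, 109 of 1022 pairs of pathway gene and class were called higher and 73 lower, both under the 16.3% and 12.7% of all gene and class pairs, and single classes differed in how many genes they called. In ciliated-like nuclei, where Isca1 peaked, 3 of 13 mitochondrial assembly partners were called higher and 2 lower, and 2 of 19 genes of iron uptake, storage and sensing higher and 8 lower, beside 26.6% and 23.6% of all genes in that class. Of 11 cytosolic assembly genes, 2 were called higher and 2 lower there, beside the same shares. Genes of these lists called lower included the iron exporter Slc40a1 (log2 difference -1.496 ± 0.55), the ferrireductase Steap3 (-1.08 ± 0.41) and the cytosolic glutaredoxin Glrx3 (-0.63 ± 0.15). Those called higher included Nubpl, which loads clusters into complex I (log2 difference 1.61 ± 0.13), the acyl carrier protein Ndufab1 (1.03 ± 0.13) and the iron transporter Slc11a2 (1.53 ± 0.14). In alveolar macrophage-like nuclei, where Lyrm4 was high, 7 of the 19 iron genes were called higher and 3 lower, and 2 of the 13 assembly partners higher and 1 lower, beside 23.9% and 22.9% of all genes in that class. The higher ones included the iron sensor Fbxl5 (1.49 ± 0.08) and Nfu1, a late-acting carrier of clusters (0.54 ± 0.13), and the lower ones Slc40a1 (-0.92 ± 0.33) and the ferredoxin Fdx1 (-0.49 ± 0.15). In the monocyte and interstitial macrophage-like class, where Tfrc was high, 4 of the 19 iron genes were called higher and 1 lower, beside 7.11% and 6.65% of all genes in that class. The higher ones included Slc11a1 (4.99 ± 0.48), Slc40a1 (2.58 ± 0.54) and Steap3 (2.43 ± 0.42), at 11.8, 49.5, 76.1 and 48.7 CPM for Slc11a1.

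For each member, the 3 genes with the most similar mean level over the 14 classes were listed by Pearson's r among the 14024 other genes tested. For Isca1 they were 0610009E02Rik (r = 0.96), Usp2 (0.94) and Gm9929 (0.92). For Lyrm4 they were Zmiz1os1 (0.96), Gm17435 (0.93) and Dffa (0.92), and for Tfrc Ccl24 (0.89), Ctsc (0.83) and Sec24c (0.83). Isca2 was most like Crebl2 (0.93), Hscb (0.91), itself a cochaperone of cluster transfer, and Gspt1 (0.91). Nfs1 was most like 3110056K07Rik (0.93), Supt7l (0.91) and Gpaa1 (0.90), Iscu like Pigp (0.90), Ces2g (0.90) and Slc39a1 (0.88), Glrx5 like Zyg11b (0.89), Carmil2 (0.87) and Tfam (0.86), and Hspa9 like Acp6 (0.93), Gm10778 (0.93) and Tollip (0.93). These are the highest of many values over 14 points that share libraries, and they are a description.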

How the data were processed

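Lung nuclei of 2 WT and 2 Tg mice were profiled with a 3′ droplet kit. The authors counted reads with Cell Ranger 6.1.1, introns included, on mm10 per the submitters' processing notes, and deposited unfiltered UMI counts per gene and barcode. These counts precede the study's own filters, doublet and free RNA removal and integration.

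Barcodes with 1500 or more UMIs were assigned in each mouse to a class by a likelihood over marker genes against the profile of the empty droplets (300 to 800 UMIs), with a log likelihood gain of at least 5. Barcodes that a mixture of 2 classes explained better by more than 2 were left out as probable doublets (1006 and 1648 in WT, 5529 and 6556 in Tg). Smooth muscle, cardiac muscle, natural killer and neutrophil classes each had under 20 barcodes in some mouse and were not compared. UMIs were summed per mouse and class. Genes passed edgeR's filter with a minimum count of 10, sums were scaled by TMM, and edgeR's quasi-likelihood test was run over all genes that passed, with Benjamini-Hochberg adjustment and a threshold of 0.05. CPM were taken without TMM, and standard errors were taken from the log2 fold change and the test's F. Free RNA shares came from Scgb1a1, Scgb3a2, Sftpc and Sftpa1. The members were named in each comparison, and of the other lists at most 3 called genes with the largest fitted change.

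The members and lists were chosen with earlier results of these data known. The alternatives were DESeq2, no filter, a replicate block, leaving out each mouse, at least 1000 or 2500 UMIs, barcodes of 2 classes kept, free RNA subtracted and droplets with fewer UMIs (100 or more). Droplets with more UMIs (under the minimum of a nucleus) and mitotic barcodes of 1 class only were chosen after seeing the data. The tests were checked on simulated data with known 4-fold changes. The genotype tests recovered 69% of them in endothelial-like nuclei and 54.5% in droplets, and the interaction 60.5%. The other comparisons tried recovered 98% to 100%. False calls were 0.909% to 5.66% of those called. The changed genes had more UMIs than Isca1, Isca2 and Lyrm4 had in endothelial-like nuclei, so smaller changes or rarer genes can be missed. R 4.3.3, edgeR 4.0.16, DESeq2 1.42.0 and Python 3.11.15 were used. A further gene of this pathway is not reported here.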

Additional observations from a re-analysis of the deposited data

How the results depend on the processing

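The small numbers of UMIs per class and mouse limit the precision, and 2 mice per genotype leave few degrees of freedom. With 1 mouse left out at a time (the lone mouse of its genotype is then assumed to vary like the others), called members numbered 0 to 3 in endothelial-like nuclei (2 as reported), 2 to 10 pairs in the other classes (6), 0 to 3 in empty droplets (1), 1 to 3 in mitotic barcodes (2), and all genes called in endothelial-like nuclei 0 to 2589 (1546). The lowest counts came without Tg replicate 1, except in mitotic barcodes, where it was Tg replicate 2. DESeq2 called 2 members in droplets and 874 of all genes in endothelial-like nuclei. With no filter on low counts there were 15 pairs in the other classes, 3 members in droplets and 2571 genes. A minimum of 2500 UMIs gave 1 member and 749 genes in endothelial-like nuclei and 0 members in mitotic barcodes, and 1000 UMIs gave 4 there. With free RNA subtracted, 0 members and 85 genes in endothelial-like nuclei and 1 pair elsewhere were called. Droplets with fewer UMIs than those used, of which there were few, gave 0 members between genotypes and 3 pairs against classes (67), and droplets with more UMIs, chosen after seeing the data, gave 3 members. Mitotic barcodes of 1 class gave 0. The causes were not tested. The interaction called 0 members in all its alternatives, and class against class 14 to 25 pairs (21).

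The replicate block gave 2 members in endothelial-like nuclei, 8 pairs in the other classes and 3 members in droplets. The replicate numbers are not stated to pair the mice.

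Signs of uncalled members turned as follows (log2 differences). In endothelial-like nuclei with at least 2500 UMIs, Lyrm4 was at -0.0065, Isca1 at 0.14 and Tfrc at -0.0293. With barcodes of 2 classes kept, Isca1 was at 0.20 and Tfrc at -0.26, and with at least 1000 UMIs Tfrc was at -0.0805. Over the mice left out, Isca1 ran from -0.50 to 0.32 and Tfrc from -0.31 to 0.35 there, and Isca1 from -0.28 to 0.64 in droplets. In mitotic barcodes, Nfs1 ran from -0.0385 to 0.0575 and Isca1 from -0.0105 to 0.0367. There Nfs1 was at 0.0235 with at least 1000 UMIs, Isca2 at 0.28 in barcodes of 1 class, Isca1 at -0.0241 with no filter and -0.0397 with at least 2500 UMIs, and Tfrc at 0.0481 with the latter.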
